A study of Mus musculus with 6 samples.

Results

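Red cell genes were read library by library in mRNA-seq of mouse hearts. The genes are Hba-a1 and Hba-a2, which encode the adult alpha chain of haemoglobin, Hbb-bs and Hbb-bt, which encode its adult beta chain, Alas2, the erythroid enzyme that starts haem synthesis, and Slc4a1, the anion exchanger of the red cell membrane. They were chosen by symbol as genes of red cells, and all 6 were found by gene identifier among the 23808 genes of the deposited table. The hearts came from wild-type (WT) female mice in a series on polycystic ovary syndrome. One group was kept on a high-fat diet (HFD) and the other on normal chow (NC), in both cases between 4 and 12 weeks of age, with 3 libraries per diet and no other treatment in the labels. The labels give neither the strain nor whether hearts were rinsed or perfused, and separate animals are not stated for the libraries. The p-values therefore reflect only how these libraries vary, and that variation may be technical.

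Haemoglobin is built from alpha and beta chains, each holding a haem group that binds oxygen. Globin mRNA is made by red cell precursors in bone marrow and spleen, is still present in reticulocytes, the youngest red cells in blood, and is lost as red cells mature. Haem synthesis starts and ends in mitochondria, and of the forms of its first enzyme Alas2 is specific to red cell precursors and Alas1 serves other tissues. Heart muscle cells make another haem protein, myoglobin, from Mb. Globin mRNA in a heart sample is usually read as blood in the tissue. In bulk RNA, fewer cells of a type and less RNA per cell cannot be told apart, and the blood in these hearts was not measured, so the values below are levels of RNA and not amounts of blood.

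Both globin pairs are near copies, which bears on what their separate values can show. By GENCODE annotation of GRCm38, the mm10 assembly, Hba-a1 lies at chr11:32283511-32284465 and Hba-a2 at chr11:32296489-32297298, both on the plus strand, and Hbb-bs at chr7:103826534-103828096 and Hbb-bt at chr7:103812524-103813996, both on the minus strand. The coding sequences of the alpha pair have 429 bases each and differ at 1 base, C381T, counted from the first coding base with Hba-a1 given first. Those of the beta pair have 444 bases and also differ at 1 base, C417T, with Hbb-bs given first. Neither change alters the encoded chain, so each pair encodes 1 protein, of 142 residues for alpha and 147 for beta with the first methionine counted. The coding stretches around the differing base are shown 5′ to 3′ because they are the only coding sequence by which reads of a pair can be separated, and the capital marks that base.
Hba-a1: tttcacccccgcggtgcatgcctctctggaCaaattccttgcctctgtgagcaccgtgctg
Hba-a2: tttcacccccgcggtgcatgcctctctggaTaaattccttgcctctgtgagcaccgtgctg
Hbb-bs: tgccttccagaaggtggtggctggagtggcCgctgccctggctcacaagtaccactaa
Hbb-bt: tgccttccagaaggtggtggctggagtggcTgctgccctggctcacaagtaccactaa

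Over whole transcripts, 56.5% of the 100-base windows of Hba-a1 occur unchanged in Hba-a2, and 62.6% of those of Hbb-bs occur in Hbb-bt. Between Hba-a1 and Hbb-bs, whose coding sequences are 60.5% identical, 0% of such windows are shared. The treatment of reads that match both copies is not stated in the sources used. The split within a pair is therefore uncertain. Since the transcripts of a pair differ in length and FPKM is scaled to length, the sum of a pair can also shift with that split.

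The 120 bases upstream of the RefSeq start are shown for 5 of the genes because these genes moved together across libraries (values below). They are from GRCm38.p6, 5′ to 3′ on the strand of the gene, and capitals mark the motif GATAA, the motif CACCC, the motif CCAAT and the motif TATAA on either strand, where touching or overlapping matches run together. The window of Hba-a1 is chr11:32283552-32283671 on the plus strand, that of Hba-a2 chr11:32296372-32296491 on the plus strand, that of Hbb-bs chr7:103827929-103828048 on the minus strand, that of Hbb-bt chr7:103813924-103814043 on the minus strand and that of Alas2 chrX:150547297-150547416 on the plus strand. Slc4a1 was named only.
Hba-a1: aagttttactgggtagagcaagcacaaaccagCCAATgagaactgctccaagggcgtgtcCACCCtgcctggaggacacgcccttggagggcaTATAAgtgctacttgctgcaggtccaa
Hba-a2: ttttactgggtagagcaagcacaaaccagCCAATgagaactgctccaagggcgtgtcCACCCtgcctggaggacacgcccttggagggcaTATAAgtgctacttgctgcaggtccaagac
Hbb-bs: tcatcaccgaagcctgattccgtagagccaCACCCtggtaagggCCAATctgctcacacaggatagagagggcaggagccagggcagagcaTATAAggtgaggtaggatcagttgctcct
Hbb-bt: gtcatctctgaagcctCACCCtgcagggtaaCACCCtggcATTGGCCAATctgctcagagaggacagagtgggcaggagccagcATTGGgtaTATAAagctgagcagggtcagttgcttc
Alas2: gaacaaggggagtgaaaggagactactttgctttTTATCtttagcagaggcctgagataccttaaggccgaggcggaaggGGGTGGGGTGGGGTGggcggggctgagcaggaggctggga

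CACCC was present in 5 of these 5 windows, against 31.7% of 32851 promoter windows of the same length. CCAAT was present in 4 (21.3% of all windows) and TATAA in the same 4 (11.8%), the globin genes, and Alas2 alone held GATAA, on the opposite strand (10.5%). The upstream windows of the alpha pair are 95.1% identical and those of the beta pair 74.6%. These matches describe the letters in the windows and are not evidence of a bound factor.

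Alpha globin RNA was among the more abundant RNAs of these hearts and differed 11.3-fold between HFD libraries. Values are FPKM, fragments scaled to gene length and to the number of fragments, a scale on which genes of different length can be compared. Hba-a1 was at 1844, 3586 and 316 FPKM in libraries HFD 1 to HFD 3, and at 1527, 2301 and 582 FPKM in libraries NC 1 to NC 3. Hba-a2 was at 1853, 3718 and 326 FPKM in the HFD libraries and at 1534, 2287 and 605 FPKM in the NC libraries, in the same order. HFD 2 was the highest library and HFD 3 the lowest for both genes, so that the HFD libraries lay on both sides of all NC libraries. The highest library was 11.3-fold above the lowest for Hba-a1 and 11.4-fold for Hba-a2.

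The beta chain genes gave the same picture with a different level for each copy. Hbb-bs, the most abundant of the 4 globin genes in every library, was at 2754, 4602 and 445 FPKM in libraries HFD 1 to HFD 3, and at 1996, 2673 and 618 FPKM in libraries NC 1 to NC 3. Hbb-bt was at 959.85, 1436 and 151 FPKM in the HFD libraries and at 669.97, 1015 and 216 FPKM in the NC libraries. The 2 diets overlapped in both genes, with HFD 2 highest and HFD 3 lowest, and the highest library was 10.3-fold above the lowest for Hbb-bs and 9.51-fold for Hbb-bt.

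Alas2, whose product joins glycine to succinyl-CoA in red cell precursors, was at a far lower level but followed the globins. It was at 17.5, 28.4 and 2.68 FPKM in libraries HFD 1 to HFD 3, and at 15.3, 17.7 and 4.57 FPKM in libraries NC 1 to NC 3, a 10.6-fold span. Its libraries stood in the order HFD 2, NC 2, HFD 1, NC 1, NC 3 and HFD 3 from high to low, which was also the order of Hba-a1, Hba-a2 and Hbb-bt. Hbb-bs differed from it only in that HFD 1 lay above NC 2. Alas2 lies at chrX:150547375-150570638 on the plus strand, and its exons overlap those of Apex2 and Mir3620 on the other strand. Whether the counting used strand is not given, and reads of overlapping genes cannot be told apart without it; Apex2 was at 2.16 to 2.36 FPKM in the HFD libraries and 2.09 to 2.93 FPKM in the NC libraries, close to the Alas2 level of HFD 3.

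Slc4a1, at chr11:102348824-102366203 on the minus strand, was barely detected. It was at 0.217, 0.332 and 0.0439 FPKM in libraries HFD 1 to HFD 3, and at 0.0809, 0.248 and 0.0813 FPKM in libraries NC 1 to NC 3. HFD 2 was again the highest library and HFD 3 the lowest, and the diets overlapped. NC 3 lay just above NC 1, unlike in the other 5 genes. With a mean of 0.167 FPKM over the 6 libraries it was below the level of 1 FPKM set for testing. The other 5 genes passed that level and stayed above it in every library.

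**Figure D1:**
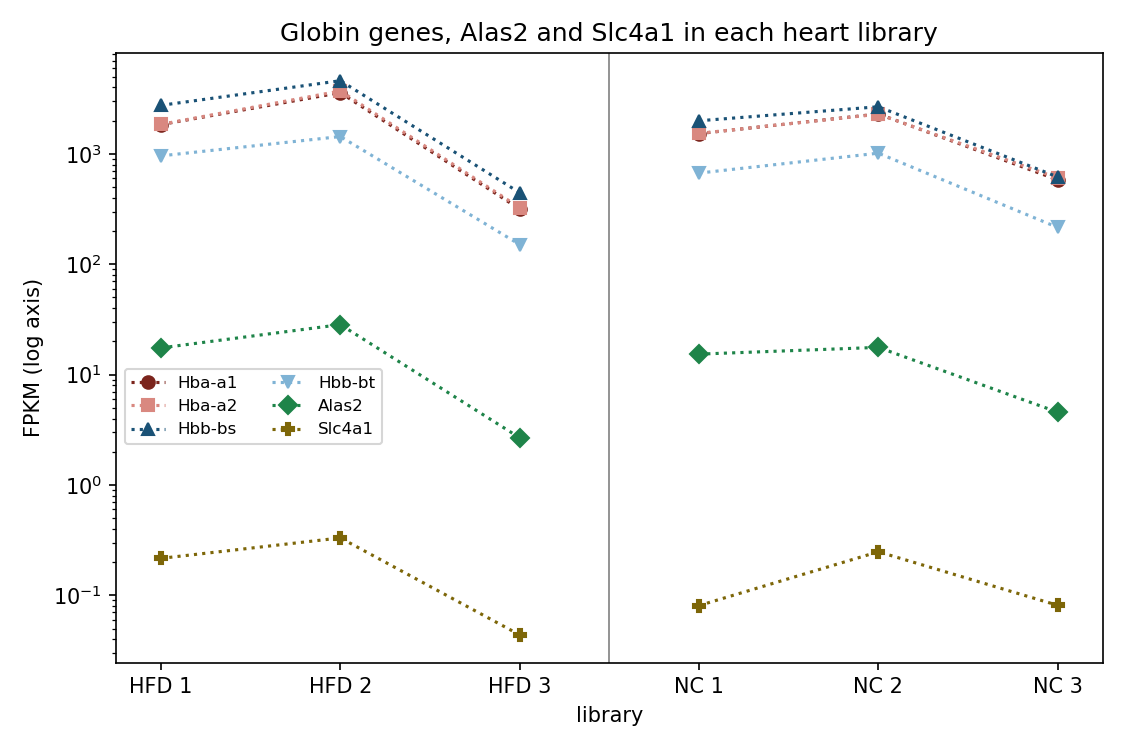
FPKM on a log axis for the 4 globin genes, Alas2 and Slc4a1 in each of the 6 heart libraries, HFD left and NC right; each point is 1 library, and dotted lines only join the points of a gene within a diet. The 4 globins and Alas2 keep their distances from each other while the whole set is high in HFD 2 and NC 2 and low in HFD 3 and NC 3, with a summed globin level of 13343 FPKM in HFD 2 and 1238 FPKM in HFD 3.

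Summed over the 4 globin genes, the level was 7410, 13343 and 1238 FPKM in libraries HFD 1 to HFD 3, and 5727, 8277 and 2021 FPKM in libraries NC 1 to NC 3. The highest library was thus 10.8-fold above the lowest, and 6.69-fold without HFD 2 or 6.60-fold without HFD 3. Globin took 1.29, 1.94 and 0.175% of the summed FPKM in the HFD libraries and 0.775, 1.19 and 0.281% in the NC libraries. HFD 1 is listed at 0 for 4 mitochondrially encoded genes, mt-Co2, mt-Cytb, mt-Nd4 and mt-Nd4l, that exceed 1000 FPKM in the other libraries, and its summed FPKM was 576334, against 687877 to 739406 in those libraries. Relative to the summed FPKM without mitochondrially encoded and globin genes, the shares were 1.57, 2.61 and 0.223% in the HFD libraries and 0.992, 1.63 and 0.361% in the NC libraries. HFD 3 and NC 3 stayed the lowest libraries and HFD 2 the highest on both scales.

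The sum of the globin genes was also set against myoglobin, the oxygen-binding protein of heart muscle itself. Mb was at 6220, 7149 and 6970 FPKM in libraries HFD 1 to HFD 3, and at 7850, 8310 and 7062 FPKM in libraries NC 1 to NC 3, a 1.34-fold span. The ratio of globin to Mb was 1.19, 1.87 and 0.178 in the HFD libraries and 0.729, 0.996 and 0.286 in the NC libraries. Haemoglobin RNA was thus above myoglobin RNA in HFD 1 and HFD 2 and below it in the other 4 libraries.

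While the level of the set moved by an order of magnitude, the proportions within it moved little. The ratio of Hba-a2 to Hba-a1 lay between 0.994 and 1.04 in the 6 libraries, and that of Hbb-bs to Hbb-bt between 2.63 and 3.20. The ratio of alpha to beta globin was 0.995, 1.21 and 1.08 in HFD 1, HFD 2 and HFD 3, and 1.15, 1.24 and 1.42 in NC 1, NC 2 and NC 3. The diets overlapped in this ratio, with HFD 1 lowest and NC 3 highest. Reads can be shared within the alpha pair and within the beta pair, so the ratio within a pair can depend on how such reads were assigned. Hba-a1 and Hbb-bs share no window of 100 bases, and the other pairings of an alpha with a beta gene were not compared.

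Alas2 kept its proportion to globin as well. Per 1000 FPKM of summed globin it was at 2.36, 2.13 and 2.16 FPKM in the HFD libraries and at 2.68, 2.13 and 2.26 FPKM in the NC libraries. The highest of these values was 1.26-fold above the lowest, against 10.6-fold for Alas2 itself. Slc4a1 was less steady, at 0.0249 to 0.0354 FPKM per 1000 FPKM of globin in the HFD libraries and 0.0141 to 0.0402 in the NC libraries, from a level near the lower end of the table.

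**Figure D2:**
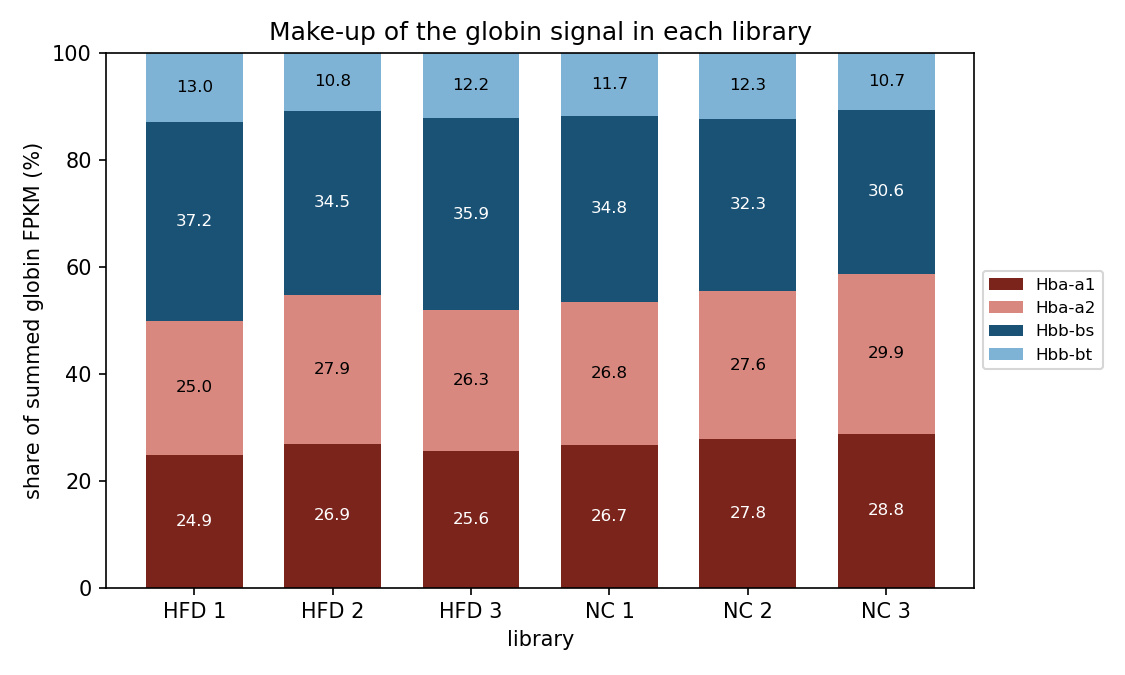
Share of the summed FPKM of the 4 globin genes taken by each gene in each library, in percent, HFD left and NC right; numbers inside the bars are the shares. Hbb-bs takes 30.6 to 37.2% and Hbb-bt 10.7 to 12.95% in all 6 libraries, although the sums differ 10.8-fold. The split within each pair is uncertain, since reads can match both copies.

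The diet comparison asked whether these genes differ in the heart after the high-fat diet. None of them passed the test. Fits were made with limma on log2(FPKM + 1) over all 11456 genes averaging 1 FPKM or more, and an adjusted p below 0.05 (Benjamini-Hochberg) was required. Of the 5 red cell genes tested, 0 were called and 0 had an unadjusted p below 0.05; over all tested genes 0 were called (0%) and 415 had an unadjusted p below 0.05. Non-overlapping diets were seen in 0 of the 5 genes, against 931 of all tested genes (8.13%).

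Hba-a1 averaged 1916 ± 1636 FPKM in HFD hearts and 1470 ± 861 FPKM in NC hearts (SD, n = 3 each), and the fitted log2 fold change was 0.01 (SE 0.71, 95% interval −1.54 to 1.56, limma adjusted p = 0.9998). Hbb-bs averaged 2601 ± 2083 FPKM in HFD hearts and 1762 ± 1047 FPKM in NC hearts (SD, n = 3 each), and the fitted log2 fold change was 0.26 (SE 0.72, 95% interval −1.30 to 1.82, limma adjusted p = 0.9998). The fitted value is a difference between mean log2(FPKM + 1) values and not the ratio of the averages, and both differences were smaller than the spread between libraries of a diet. The log2 fold change was 0.03 for Hba-a2 (SE 0.71), 0.17 for Hbb-bt (SE 0.71) and 0.08 for Alas2 (SE 0.64), with limma adjusted p-values of 0.9998. Slc4a1 averaged 0.197 ± 0.145 FPKM in HFD hearts and 0.137 ± 0.0966 FPKM in NC hearts (SD, n = 3 each) and was not tested. The intervals of this fit, which pairs no libraries, reach beyond a log2 change of 1 in both directions, so it leaves differences of that size unresolved either way.

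The direction of the difference rested on single libraries. The mean summed globin level was 7330 ± 6053 FPKM in HFD hearts and 5341 ± 3146 FPKM in NC hearts (SD, n = 3 each), a ratio of 1.37, and the ratio was 0.810 without HFD 2. On the log2 scale the sign of all 5 tested genes turned to lower on HFD without HFD 1, without HFD 2 or without NC 3. Without HFD 2, Hba-a1 had a log2 fold change of −0.73, and without HFD 3 one of 1.02. Without HFD 3, Hbb-bs had a log2 fold change of 1.26 with an unadjusted p of 0.0448 (limma adjusted p = 0.834), and it was then 1 of the 5 genes below 0.05.

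**Figure D3:**
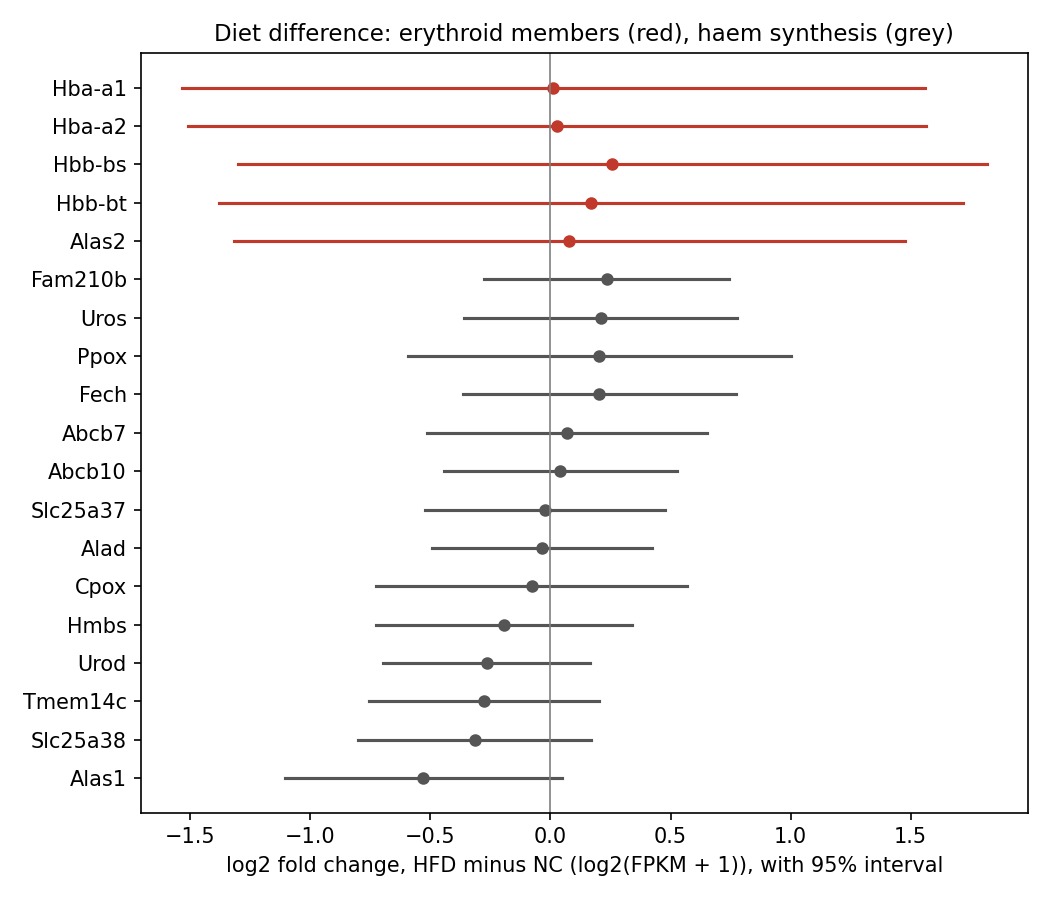
Log2 fold change on the log2(FPKM + 1) scale, HFD minus NC, with its 95% interval from limma (3 libraries per diet), for the 5 tested red cell genes in red and for 14 genes of haem synthesis in grey. The red intervals, such as −1.54 to 1.56 for Hba-a1, are wider than the grey ones and all of them cross 0.

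The red cell genes were among the more variable genes of the table. Over the 6 libraries the SD of the log2 level was 1.31 for Hba-a1, 1.30 for Hba-a2, 1.33 for Hbb-bs, 1.32 for Hbb-bt and 1.17 for Alas2. Of the 11456 tested genes, 39 varied more than Hbb-bs and 59 varied more than Alas2. These ranks describe these libraries and were not tested.

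Of the other globin genes, the tested ones varied little between libraries. Of 11 listed, 6 were in the table and 2 were tested, with 0 called in either direction. Mb had a log2 fold change of −0.19 (SE 0.19), and Cygb, which encodes cytoglobin of fibroblasts and other cells, one of −0.13 (SE 0.24). The embryonic beta-like gene Hbb-y was listed at 0 in all 6 libraries. The alpha-like theta gene Hbq1a was at 0.127, 0.570 and 0 FPKM in the HFD libraries and at 0, 1.01 and 0 FPKM in the NC libraries. It was highest in NC 2 and HFD 2 and at 0 in HFD 3 and NC 3, but also at 0 in NC 1, where summed adult globin was 5727 FPKM. Its order thus matched the adult globins only in part. Hbq1b was at or below 0.242 FPKM and at 0 in 4 of the 6 libraries. Both were too low to be tested.

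The other genes of haem synthesis kept a far narrower range than Alas2. All 14 were tested and 0 were called, with 6 higher and 8 lower on HFD and a median log2 fold change of −0.03, against −0.02 over all tested genes. Alas1, the form of the first enzyme used outside red cells, was at 27.6, 27.3 and 51.1 FPKM in libraries HFD 1 to HFD 3, and at 45.1, 60.4 and 43.8 FPKM in libraries NC 1 to NC 3 (log2 fold change −0.53, SE 0.27, unadjusted p = 0.0688, limma adjusted p = 0.9998). It was thus above Alas2 in every library except HFD 2, where it was at 27.3 FPKM and Alas2 at 28.4 FPKM. The next smallest p-values were those of Slc25a38, the mitochondrial glycine carrier (log2 fold change −0.32), Urod, which acts on uroporphyrinogen (−0.27), and Tmem14c, a porphyrin transporter (−0.28). In Urod the diets did not overlap, at 28.4, 31.5 and 36.0 FPKM in the HFD libraries and 37.1, 39.9 and 38.4 FPKM in the NC libraries. The summed level of the list was 177 to 256 FPKM in the HFD libraries and 225 to 254 FPKM in the NC libraries.

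Genes of the red cell membrane and skeleton gave 0 calls among 13 tested of 20 in the table (21 listed), with 6 higher and 7 lower on HFD and a median log2 fold change of −0.00. Epb41, which encodes protein 4.1R, had a log2 fold change of 0.55 (SE 0.25, unadjusted p = 0.0522). Gypc, a glycophorin, had one of −0.35 and Ank1, the erythrocyte ankyrin that is also made in muscle, one of −0.32. Ank1 was at 56.6, 63.4 and 98.6 FPKM in libraries HFD 1 to HFD 3, and at 80.8, 84.8 and 102 FPKM in libraries NC 1 to NC 3, highest in HFD 3 and NC 3, the libraries lowest in globin. Rhag, of the Rh complex, was at or below 0.0455 FPKM, and Epb42 at or below 0.262 FPKM in every library.

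Red cell enzymes and soluble proteins gave 0 calls among 17 tested of 21 in the table (24 listed), with 8 higher and 9 lower on HFD and a median log2 fold change of −0.01. The 4 with the smallest p were Hagh, a glyoxalase (log2 fold change −0.39), Bcl2l1, an anti-death protein (0.32), Blvrb, a biliverdin reductase (−0.39), and Bnip3l, which acts in removal of mitochondria (0.35). In Bcl2l1 the diets did not overlap, at 16.2, 15.2 and 17.0 FPKM in the HFD libraries and 14.5, 10.9 and 13.1 FPKM in the NC libraries. Bpgm, which makes the allosteric regulator of haemoglobin, was at 13.7, 12.5 and 7.41 FPKM in the HFD libraries and 14.2, 9.83 and 6.51 FPKM in the NC libraries, so HFD 3 and NC 3 were lowest there too, over a 2.18-fold span. Others of the list went the other way, with Cat and Riok3 highest in HFD 3 and Blvrb and Gpx1 highest in NC 3. The list sum was 482, 508 and 474 FPKM in the HFD libraries and 544, 540 and 488 FPKM in the NC libraries. Pklr and Trim58 were listed at 0 in all 6 libraries.

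Transcription factors of red cell precursors were at or near 0 where they are specific to that lineage. Gata1, the master regulator of the lineage, was at or below 0.0314 FPKM in every library and Gfi1b was listed at 0 in all 6. Klf1, which binds CACCC boxes of the beta globin gene, was at 0.103, 0.457 and 0.154 FPKM in libraries HFD 1 to HFD 3, and at 0.0522, 0.0495 and 0 FPKM in libraries NC 1 to NC 3, every HFD value above every NC value but at a level too low to be tested. Of the 14 regulators 6 were tested, all of which are also expressed outside red cells, and 0 were called, with 1 higher and 5 lower on HFD and a median log2 fold change of −0.21. Cited4, a co-activator also made in heart muscle, was at 7.29, 5.50 and 13.2 FPKM in the HFD libraries and 15.6, 12.2 and 41.6 FPKM in the NC libraries (log2 fold change −1.20, SE 0.40, unadjusted p = 0.0116, limma adjusted p = 0.9998). Among partners of the haematopoietic factor Tal1 and its relatives, Lyl1 had a log2 fold change of −0.57, Lmo2 one of −0.24 and Ldb1 one of −0.17. In Lmo2 the diets did not overlap, at 14.9 to 18.8 FPKM in the HFD libraries and 19.4 to 22.2 FPKM in the NC libraries.

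Genes that clear haem, haemoglobin and iron gave 0 calls among 15 tested of 18, with 3 higher and 12 lower on HFD and a median log2 fold change of −0.15. Trf, transferrin of iron transport, was at 8.47, 10.1 and 16.7 FPKM in libraries HFD 1 to HFD 3, and at 22.4, 14.9 and 20.9 FPKM in libraries NC 1 to NC 3 (log2 fold change −0.71, SE 0.27, unadjusted p = 0.0210, limma adjusted p = 0.9998). Lrp1, the receptor of haem bound to haemopexin, had a log2 fold change of −0.38, Slco2b1, an organic anion transporter, one of 0.24 and Slc40a1, the iron exporter ferroportin, one of −0.30. Hmox1, the inducible haem oxygenase, was at 4.23, 4.01 and 4.83 FPKM in the HFD libraries and 3.83, 2.87 and 4.61 FPKM in the NC libraries. It was highest in HFD 3, the library lowest in globin, and lowest in NC 2. Of the 18 genes of this list, 6 had HFD 3 and NC 3 as their highest libraries. Ftl1, Slco2b1, Flvcr1 and Hpx were instead highest in HFD 2, the library highest in globin.

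Markers of other blood cells were set beside the globins by the summed FPKM of each list. The neutrophil list was at 6.91, 7.34 and 3.30 FPKM in libraries HFD 1 to HFD 3, and at 7.72, 5.07 and 4.16 FPKM in libraries NC 1 to NC 3, so that HFD 3 and NC 3 were the lowest of their diets as for globin. Mmp9, Csf3r and Ly6g went the other way, highest in NC 3, and Elane was above 0 only in HFD 3. The list spanned 2.34-fold and was highest in NC 1. Of its 16 genes 2 reached the level for testing, and Wfdc21 and Stfa2l1 were at 0 in all 6 libraries. The T and NK cell list was at 5.80, 9.40 and 4.24 FPKM in the HFD libraries and 8.54, 5.02 and 6.18 FPKM in the NC libraries, with HFD 2 highest and HFD 3 lowest. The platelet list did not follow globin, at 39.7, 31.7 and 37.3 FPKM in the HFD libraries and 87.8, 39.3 and 66.7 FPKM in the NC libraries. Pf4, the platelet chemokine that heart macrophages also make, was at 20.3, 20.5 and 24.1 FPKM in the HFD libraries and 54.7, 26.8 and 42.2 FPKM in the NC libraries (log2 fold change −0.85, SE 0.26, unadjusted p = 0.00654, limma adjusted p = 0.9998). The monocyte list was at 45.0 to 58.1 FPKM in the HFD libraries and 32.5 to 59.3 FPKM in the NC libraries, and the B cell list at 7.47 to 11.2 FPKM in the HFD libraries and 8.43 to 15.5 FPKM in the NC libraries. In each of these 5 lists 0 genes were called.

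Of the tissue markers, most of those of the atria stood highest where globin stood lowest. The labels name the heart and no chamber, so the ventricular muscle list does not mark a labelled part. Its genes summed to 39111, 42461 and 42510 FPKM in libraries HFD 1 to HFD 3, and 50802, 55171 and 41690 FPKM in libraries NC 1 to NC 3. Myl2, the most abundant of them, was at 10006, 11155 and 8410 FPKM in the HFD libraries and 13578, 15202 and 9273 FPKM in the NC libraries. This 1.81-fold span had HFD 3 and NC 3 lowest within each diet. In no other gene of the list was HFD 3 the lowest HFD library. Myh6 and Ttn, 2 of the 16 genes, were highest in HFD 3 and NC 3. Mybpc3, Ryr2, Atp2a2 and Pln were also highest in HFD 3, but not next highest in NC 3. The 14 atrial markers together were at 1790, 618 and 7647 FPKM in the HFD libraries and 4041, 745 and 14638 FPKM in the NC libraries, 13 of them tested and 0 called. NC 3 and HFD 3, the highest libraries in atrial markers, were the lowest in globin, and HFD 2 and NC 2, the lowest in atrial markers, were the highest in globin. Of the 14 atrial genes, 11 had NC 3 and HFD 3 as their highest libraries, and Kcna5 and Nppb were among those that did not. Nppb, which encodes B-type natriuretic peptide, was at 76.2, 64.0 and 72.7 FPKM in the HFD libraries and at 172, 186 and 141 FPKM in the NC libraries, without overlap (log2 fold change −1.21, limma adjusted p = 0.307). The sum was carried mostly by Nppa, Myl7 and Myl4. Nppa, which encodes atrial natriuretic peptide, was at 941, 227 and 4185 FPKM in the HFD libraries and 2072, 277 and 9404 FPKM in the NC libraries. Structural RNAs, a list of abundant short noncoding RNAs, summed to 184, 832 and 1708 FPKM in the HFD libraries and 229, 180 and 904 FPKM in the NC libraries. HFD 3 and NC 3 were highest, followed by HFD 2, the library highest in globin. Of the 6 genes of this list above 0, 4 had HFD 3 and NC 3 as their highest libraries, and Rmrp and Rpph1 did not. Endothelial genes summed to 1907, 2338 and 1319 FPKM in the HFD libraries and 1660, 1229 and 1093 FPKM in the NC libraries, and resident macrophage genes to 102.8, 139 and 129 FPKM in the HFD libraries and 191, 144 and 199 FPKM in the NC libraries. In the ventricular, structural RNA, endothelial and macrophage lists 0 genes were called, of 16, 6, 15 and 11 tested. The part of these markers in the globin level was not tested.

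**Figure D4:**
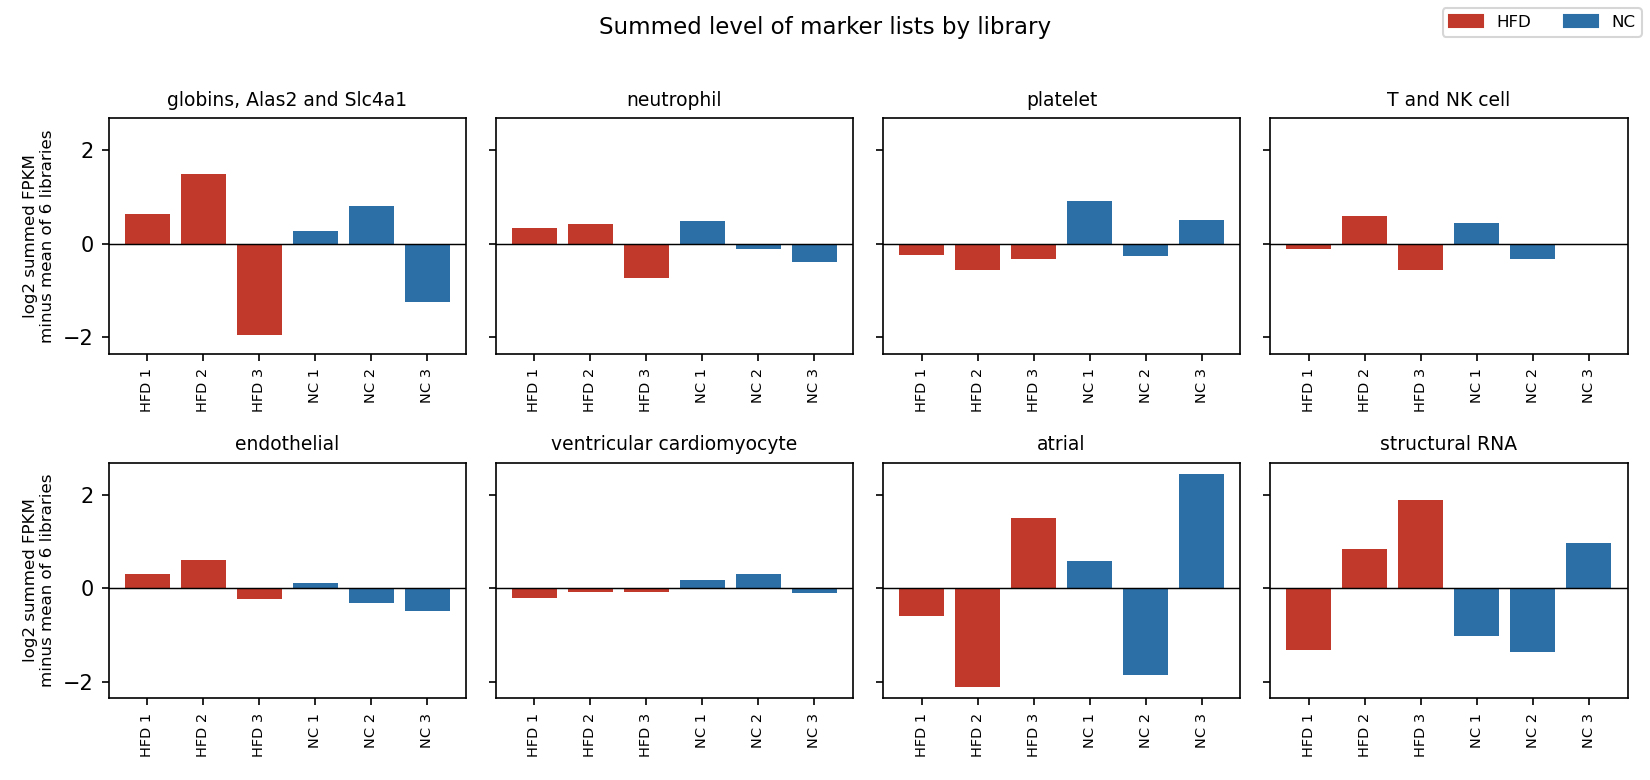
Log2 of the summed FPKM of 8 marker lists in each library, minus the mean of the 6 libraries, with 1 bar per library, HFD in red and NC in blue. The red cell genes fall lowest in HFD 3 and NC 3, the 2 libraries in which the atrial and the structural RNA lists are highest. The structural RNA list is next highest in HFD 2, where globin is highest. The sum of the ventricular genes stays within 1.41-fold, although single genes of it span more.

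The genes whose library pattern came closest to the globins were sought over all tested genes by the root-mean-square difference between centred log2(FPKM + 1) values and the mean of the 4 globins over the 6 libraries. The globins themselves lay at 0.0754 to 0.0910 and Alas2 at 0.165 log2 units. No other tested gene was nearer than 0.613, that of the predicted gene Gm34302, against 1.20 for a gene with no variation. Of the 10 nearest genes with a name, 9 were AW112010 (0.699), Rbp7 (0.714), Rhox5 (0.728), Tmem255b (0.747), Ly6c2 (0.748), S100a9 (0.791), Depp1 (0.801), Gngt2 (0.804) and Tgtp2 (0.813). S100a9, a neutrophil calcium-binding protein, was at 2.80, 2.03 and 0.614 FPKM in the HFD libraries and 1.69, 1.79 and 0.429 FPKM in the NC libraries, and Ly6c2, a surface marker of monocytes, at 19.6, 26.1 and 7.28 FPKM in the HFD libraries and 12.6, 9.07 and 5.86 FPKM in the NC libraries. Both were lowest in HFD 3 and NC 3, the libraries lowest in globin, and the likeness is a description of 6 libraries. Ly6c2 was the only 1 of 6 tested monocyte genes nearer to the globins than a gene with no variation. Over all tested genes this held for 2155 of 11456 (18.8%). It also held for 2 of 2 neutrophil, 2 of 2 T and NK cell, 12 of 15 endothelial, 9 of 17 red cell enzyme and 7 of 16 ventricular genes. The other lists around red cells were lower, with 1 of 13 for the membrane and skeleton and 1 of 14 for haem synthesis. It held for 0 of 6 erythroid regulators and 1 of 15 clearance genes. In the platelet list it held for 1 of 7 and in the atrial list for 1 of 13. The monocyte list as a whole was highest in NC 3, at 59.3 FPKM, and lowest in NC 2, at 32.5 FPKM.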

How the data were processed

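Per the labels, Trizol RNA of mouse hearts was made into libraries with a VAHTS mRNA-seq kit, 3 per diet. The authors deposited 1 table of FPKM values for the 6 libraries; per the submitters' processing notes, which state no roles, mm10, HISAT2 2.2.1, HTSeq 0.13.5, Trimmomatic 0.38, DESeq2 1.18.1, R 3.4.1 and FastQC 0.11.9 were used. The program behind the FPKM values, the strand setting and the treatment of reads with several matches are not stated there or in the labels. Whole-read steps were not found (2.59 to 5.32% of ratios under 0.3 FPKM lay within 0.02 log2 of the commonest ratio), so depth is unknown and no counting error is given.

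Gene identifiers were matched to symbols (23718 of 23808). Values became log2(FPKM + 1), a scale that understates changes of low genes; genes averaging 1 FPKM or more were compared between diets with limma 3.58.1 in R 4.3.3 (trend, two-sided, Benjamini-Hochberg over 11456 genes, no covariate), tried first on simulated data. Fold changes are HFD minus NC. The genes and the lists were chosen with earlier results of these data known. From each list up to 4 genes with the smallest p are named, with non-overlapping genes where a list has 3 or fewer. For lists outside the red cell lineage only selected ones of these are printed. Some listed genes, such as Bpgm and Hmox1, are printed outside this rule. Predicted models were left out of the nearest genes. Of the genes the rule took, 2 are not reported here. Other pseudocounts, filters, scalings, limma settings, a replicate block and each library left out were tried. Sequences are from RefSeq (GRCm38.p6; 5 of 6 genes matched) and GENCODE. Figures were drawn with matplotlib 3.10.9.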

Additional observations from a re-analysis of the deposited data

How the results depend on the processing

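Of the 5 tested red cell genes, 0 were called under any of 21 alternatives. Leaving out 1 library at a time turned the sign of all 5 in 3 of 6 cases. Without HFD 1 the log2 fold change was −0.25 for Hba-a1, −0.22 for Hba-a2, −0.06 for Hbb-bs, −0.18 for Hbb-bt and −0.20 for Alas2. Without HFD 2 it was −0.73, −0.73, −0.43, −0.47 and −0.53 in the same order of genes, and without NC 3 it was −0.55, −0.52, −0.38, −0.47 and −0.47. Without HFD 3 it was 1.02, 1.03, 1.26, 1.15 and 0.97. The 15 other settings turned no sign, and the log2 fold change of Hbb-bs lay between 0.24 and 0.52. The ratio of mean summed globin was 0.810 to 1.94 when 1 library was left out and 1.47 when scaled to the FPKM without mitochondrial and globin genes, which put the ratio of the highest to the lowest library at 11.7 against 10.8. Slc4a1 passed only the lower filters, with a log2 fold change of 0.07 (limma adjusted p = 0.9999 with a filter of 0.1 FPKM).

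Over all genes, 0 were called except 1 without NC 2 and 73 with the replicate number as a block (22 higher and 51 lower on HFD). The smallest limma adjusted p with the block was 1.4e-93. From 3 libraries per diet such a value cannot be taken at face value, so the calls and intervals of the block are not relied on. The block called 0 red cell genes. Over all tested genes, same-numbered libraries deviated together with correlations of 0.193, 0.0864 and 0.275, so the numbers were not taken as pairs. HFD 1 correlated best with NC 2 (0.251), not with its own number. The tested red cell genes did rank the replicate numbers alike in both diets, and whether the libraries are paired is not stated. Scaling each library to the same sum put the median of all genes at 0.09, a shift of 0.11 (log2); relative to the median of all genes, Hba-a1 was then at 0.05 and Hbb-bs at 0.30, against 0.03 and 0.28 as deposited. FPKM without read counts give no depth, which limits most the genes near 0, such as Slc4a1 and Klf1.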
